A study of Homo sapiens with 6 samples.

Results

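The 45 genes described here are interferon-stimulated genes, which cells switch on when they sense interferon or foreign nucleic acid. They were chosen as every probe set on the array whose only annotated gene symbol is one of 45 listed symbols. That gave 89 of 54613 probe sets and 44 of the 45 genes, since STAT2 had no probe set with a single symbol and was not measured here. A filter on low mean intensity over all 6 arrays, blind to the groups, kept 46 probe sets of 31 genes. The other 13 genes are described by intensity alone: OAS1, OAS2, BST2, MX2, GBP1, GBP2, TRIM22, SP100, IFI27, IFI35, IFI44, IFI44L and XAF1.

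RNA from a kidney cell line of human origin, which the labels do not name, was hybridised as total RNA to 6 one-colour oligonucleotide arrays. Cells had been transfected with hIMP1 Dmut, with hIMP1 wt or with an empty vector (mock), and each group had 2 arrays, numbered 1 and 2 in the labels. hIMP1 is human IMP1 (gene symbol IGF2BP1), a protein that binds mRNA. What the Dmut form changes, the share of cells that took up plasmid and the time after transfection are not stated in the labels. All 3 groups received a plasmid and none was left untransfected, so an interferon response common to all 6 arrays cannot be seen as a difference between groups.

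Type I interferons bind the IFNAR1 and IFNAR2 receptor chains, whose kinases JAK1 and TYK2 phosphorylate STAT2. With IRF9 it is part of a factor that binds the interferon-stimulated response element in promoters and switches on antiviral genes. Plasmid DNA in the cytosol can be sensed through CGAS and STING1, and double-stranded RNA through RIGI and IFIH1, and both routes can induce interferon. The question was whether transfection left such a response in these cells.

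Several members carry the core letters of that response element near their start. GAAA followed, after any 2 bases, by a second GAAA was searched on both strands in the window of 250 bases before to 50 bases after each RefSeq gene start (GRCh38.p14), with overlapping matches counted. Of the 36 members with a window, 25 (69.4%) held at least 1 match, against 1195 of 27305 genes (4.38%). By this search, 15 of the 18 members that were above the floor described below on all 6 arrays held a match (83.3%), as did 6 of the 10 above it on 1 to 5 arrays (60%) and 4 of the 7 that were above it on none (57.1%). Windows of 5 members are shown because ISG15, IFIT1 and IFITM1 are among the genes whose intensities the results turn on, while IFI27 and IFI44L gave intensities near the bottom of the array with the same letters in their promoters. Each is on the plus strand, and capitals mark the matches on either strand.
ISG15, chr1:1013344-1013493: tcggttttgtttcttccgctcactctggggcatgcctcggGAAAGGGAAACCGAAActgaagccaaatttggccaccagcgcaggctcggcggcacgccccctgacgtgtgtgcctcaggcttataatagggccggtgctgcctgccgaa
IFIT1, chr10:89392467-89392616: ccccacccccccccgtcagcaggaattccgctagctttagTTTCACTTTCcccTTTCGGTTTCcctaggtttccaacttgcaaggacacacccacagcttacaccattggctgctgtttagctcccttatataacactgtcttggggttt
IFITM1, chr11:313940-314089: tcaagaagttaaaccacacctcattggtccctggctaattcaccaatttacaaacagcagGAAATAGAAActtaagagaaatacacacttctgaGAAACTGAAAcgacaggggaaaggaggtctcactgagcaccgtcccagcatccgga
IFI27, chr14:94110588-94110737: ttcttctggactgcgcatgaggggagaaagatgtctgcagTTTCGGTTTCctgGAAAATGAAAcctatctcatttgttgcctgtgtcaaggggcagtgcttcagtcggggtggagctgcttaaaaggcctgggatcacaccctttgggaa
IFI44L, chr1:78620244-78620393: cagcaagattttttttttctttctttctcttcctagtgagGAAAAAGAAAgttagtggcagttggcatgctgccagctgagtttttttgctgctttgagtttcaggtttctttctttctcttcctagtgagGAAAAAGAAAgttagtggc
Each of the 5 stretches holds 2 matches, and in ISG15 the 2 matches overlap. The match is a description of the letters and says nothing about binding in these cells.

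Intensities were deposited on a linear scale, with the same trimmed mean on all 6 arrays (150.02, with 2% taken off each end) and array medians between 26.7 and 33.7. Arrays with the same number correlated between 0.970 and 0.980 across probe sets, and arrays of the same group between 0.963 and 0.964. Of 9 genes listed as kidney epithelium markers, 6 were above the floor on all 6 arrays. VIM lay between 5279 and 6611 and KRT18 between 1149 and 1356. CDH2 was also among these 6 and CDH1 was not, and VIM and CDH2 are not particular to epithelium. Of the renal transcription factors, named outside the rule for genes, PAX8 lay between 148.3 and 287.3, while PAX2 passed the floor on 1 array and LHX1 on none. Of 8 differentiated nephron markers with a probe set and 11 blood cell markers, 0 were above it on all 6 arrays, and of 10 fibroblast and endothelium markers 1 was; 0 genes of these 4 lists were called in any comparison below. The brighter IGF2BP1 probe set read 266.1 and 287.5 in hIMP1 Dmut, 226.1 and 326.5 in hIMP1 wt and 230.5 and 306.9 in mock. Its log2 change was 0.05 ± 0.25 for hIMP1 Dmut and 0.03 ± 0.25 for hIMP1 wt against mock (SE). A second kept probe set differed by 0.51 ± 0.39 for hIMP1 Dmut and 0.46 ± 0.39 for hIMP1 wt against mock. Between arrays numbered 2 and 1 it differed by -0.83 ± 0.16, against 0.34 ± 0.14 for the brighter probe set. Whether either reads the transfected sequence is not known, so they do not check the labels.

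No detection calls were used here. As a rough floor, each array's 95th percentile was taken over 161 probe sets of 133 olfactory receptor, taste receptor and keratin-associated protein genes, which belong to other tissues. It lay between 28.67 and 50.73 over the arrays. Intensity depends on the probes as well as on the RNA, so genes are set against this floor and not ranked against each other. Each member is given by its probe set of highest mean, with the 2 arrays of a group in the order of their numbers.

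About as large a share of the members as of all genes gave a signal above the floor throughout. Of 44 genes, 21 (47.7%) exceeded it on all 6 arrays, 13 on 1 to 5 and 10 on none, against 10208 of 19775 genes on the array (51.6%) on all 6. With the 90th and the 99th percentile as the floor, 24 and 20 members were above it on all 6 arrays. Members known to rise strongly after interferon lay on both sides of it: IFIT1 and ISG15 were above it on all 6 arrays, IFIT3 on 5, IFIT2 on 2, MX1 on 1, and OAS1, IFI27 and IFI44L on none.

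**Figure D1:**
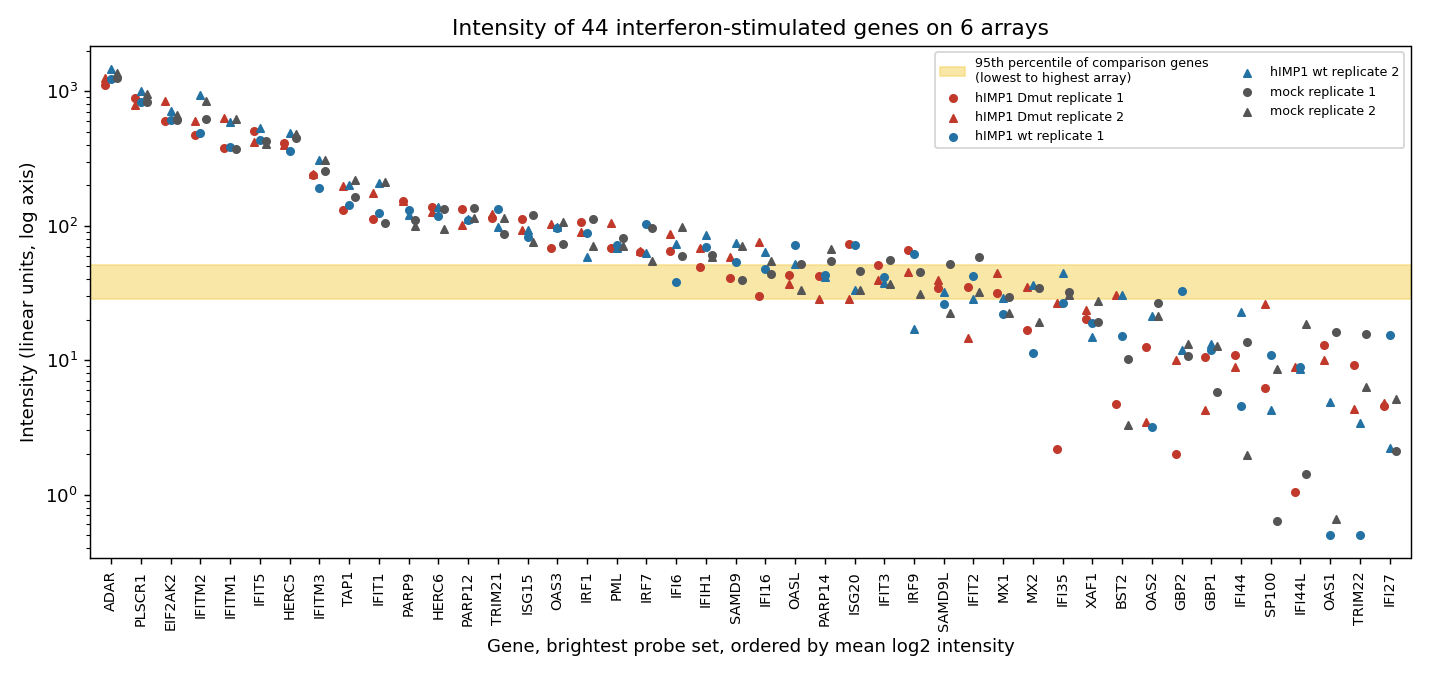
Intensity of 44 interferon-stimulated genes on each of the 6 arrays (log axis), with genes ordered by mean log2 intensity and the band spanning the lowest to the highest array's 95th percentile of the comparison genes. ADAR lies between 1107 and 1460 on every array, and IFI27 between 2.12 and 15.4.

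Among the genes that transmit the interferon signal, IRF1 is a transcription factor induced most strongly by interferon gamma. It read 106.1 and 89.6 in hIMP1 Dmut, 88.1 and 58.6 in hIMP1 wt and 112.8 and 71.1 in mock. IRF7, which drives interferon alpha genes, read 63.3 and 64.6 in hIMP1 Dmut, 103.9 and 62.2 in hIMP1 wt and 97.0 and 54.5 in mock. IRF9, the DNA-binding partner of STAT2, read 65.7 and 45.4 in hIMP1 Dmut, 61.5 and 17.1 in hIMP1 wt and 45.2 and 30.8 in mock. IRF1 and IRF7 were above the floor on all 6 arrays and IRF9 on 3, and in IRF9 the second hIMP1 wt array was the lowest.

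Of the RNA sensors and antiviral enzymes, ADAR edits adenosine to inosine in double-stranded RNA and EIF2AK2 (PKR) shuts off translation when it binds such RNA. ADAR read 1107 and 1263 in hIMP1 Dmut, 1233 and 1460 in hIMP1 wt and 1261 and 1367 in mock. EIF2AK2 read 598.4 and 845.1 in hIMP1 Dmut, 614.9 and 709.4 in hIMP1 wt and 608.6 and 665.1 in mock. Both genes also have roles in cells that have met no interferon, and their 3 groups overlapped in these probe sets. Among the other kept EIF2AK2 probe sets, the brighter read lower on the array numbered 2 of each group. In the dimmer, both hIMP1 wt arrays (94.75 and 115.1) were above all mock and hIMP1 Dmut arrays. IFIH1 (MDA5), a sensor of long double-stranded RNA, read 49.0 and 68.5 in hIMP1 Dmut, 69.0 and 86.0 in hIMP1 wt and 60.5 and 58.4 in mock. In hIMP1 wt both IFIH1 arrays were above both mock arrays and both hIMP1 Dmut arrays.

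The OAS enzymes make the second messenger that activates RNase L. OAS3 read 68.1 and 103.9 in hIMP1 Dmut, 96.6 and 97.2 in hIMP1 wt and 72.7 and 107.5 in mock. OAS1 read 12.9 and 10.1 in hIMP1 Dmut, 0.503 and 4.90 in hIMP1 wt and 16.2 and 0.662 in mock. OAS2 lay between 3.18 and 26.7. OAS3 was thus above the floor on all 6 arrays, and OAS1 and OAS2 on none. OASL, a related protein without that enzyme activity, read 43.1 and 36.7 in hIMP1 Dmut, 72.0 and 51.9 in hIMP1 wt and 51.9 and 33.0 in mock. ISG20, an exonuclease that degrades RNA, read 72.6 and 28.6 in hIMP1 Dmut, 71.9 and 33.5 in hIMP1 wt and 45.8 and 33.2 in mock. In both OASL and ISG20 the array numbered 1 was the brighter of each group.

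The IFIT proteins bind viral RNA that lacks the cap marks of host mRNA. IFIT1 read 111.7 and 174.1 in hIMP1 Dmut, 125.4 and 207.0 in hIMP1 wt and 104.5 and 210.1 in mock. IFIT5 read 504.6 and 416.7 in hIMP1 Dmut, 432.5 and 536.9 in hIMP1 wt and 425.4 and 404.8 in mock. Both were above the floor throughout, and IFIT1 was higher on every array numbered 2 than on every array numbered 1. IFIT2 read 34.9 and 14.6 in hIMP1 Dmut, 42.5 and 28.3 in hIMP1 wt and 58.8 and 32.3 in mock. IFIT3, which forms complexes with IFIT1, read 50.8 and 39.5 in hIMP1 Dmut, 41.9 and 37.3 in hIMP1 wt and 56.0 and 36.7 in mock. In these probe sets of IFIT2 and IFIT3 the array numbered 1 was the brighter of each group.

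ISG15 is a ubiquitin-like protein that is joined to newly made proteins, mainly by the ligase HERC5 in human cells. ISG15 read 112.7 and 93.3 in hIMP1 Dmut, 82.9 and 92.4 in hIMP1 wt and 120.2 and 76.2 in mock. HERC5 read 412.5 and 400.5 in hIMP1 Dmut, 361.6 and 488.8 in hIMP1 wt and 445.8 and 484.4 in mock. HERC6, its close relative, read 138.0 and 127.0 in hIMP1 Dmut, 117.4 and 137.7 in hIMP1 wt and 132.3 and 94.1 in mock. All 3 genes stayed above the floor, and the mock arrays of ISG15 spanned all values of the other groups.

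IFITM proteins block the fusion of enveloped viruses with cell membranes. IFITM1 read 379.2 and 635.3 in hIMP1 Dmut, 382.4 and 595.2 in hIMP1 wt and 370.0 and 617.8 in mock. IFITM2 read 469.7 and 599.2 in hIMP1 Dmut, 489.5 and 931.4 in hIMP1 wt and 618.9 and 854.2 in mock. IFITM3 read 237.6 and 241.7 in hIMP1 Dmut, 190.0 and 310.6 in hIMP1 wt and 254.9 and 308.3 in mock. In all 3 genes the array numbered 2 was the brighter of each group; their transcripts are close in sequence, so these probe sets may share target RNA. PLSCR1, a phospholipid scramblase of the plasma membrane, read 890.3 and 789.0 in hIMP1 Dmut, 834.3 and 997.2 in hIMP1 wt and 839.4 and 962.8 in mock. BST2 (tetherin), which holds budding virus at the cell surface, lay between 3.29 and 30.8 and passed the floor on 1 array.

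The interferon-induced GTPases gave low signals in all 3 groups. MX1, which blocks replication of influenza and other viruses, read 31.8 and 44.9 in hIMP1 Dmut, 22.0 and 29.2 in hIMP1 wt and 29.7 and 22.5 in mock. MX2, a relative that acts on HIV, lay between 11.2 and 36.5. GBP1 and GBP2, guanylate-binding proteins that coat intracellular pathogens, were above the floor on 0 arrays, with highest values of 13.2 and 32.6. MX1 and MX2 each passed it on 1 array.

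TRIM21, an intracellular antibody receptor and ubiquitin ligase, read 114.1 and 122.6 in hIMP1 Dmut, 133.1 and 98.4 in hIMP1 wt and 86.8 and 115.1 in mock. PML, which organises nuclear bodies, read 67.7 and 104.1 in hIMP1 Dmut, 71.4 and 68.8 in hIMP1 wt and 81.6 and 71.0 in mock. In these probe sets both genes stayed above the floor, and their groups overlapped. Most other PML probe sets did not stay above the floor on all 6 arrays. IFI16, a nuclear DNA sensor, lay between 30.2 and 75.5 and passed it on 5 arrays. TRIM22 and SP100, the second a partner of PML in nuclear bodies, were above it on none, with highest values of 15.8 and 26.3.

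PARP9 and PARP14 belong to the macro-domain PARP proteins, and PARP12 carries RNA-binding zinc fingers. PARP9 read 153.4 and 153.2 in hIMP1 Dmut, 130.8 and 119.8 in hIMP1 wt and 110.4 and 99.2 in mock. PARP12 read 133.3 and 100.9 in hIMP1 Dmut, 110.9 and 113.0 in hIMP1 wt and 135.5 and 114.1 in mock. PARP14 read 42.5 and 28.7 in hIMP1 Dmut, 43.2 and 41.3 in hIMP1 wt and 54.5 and 67.3 in mock. The groups of PARP9 did not overlap, with hIMP1 Dmut highest and mock lowest, while in PARP14 both mock arrays were above the other 4.

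Of the remaining induced genes, TAP1 pumps peptides into the endoplasmic reticulum for MHC class I. TAP1 read 131.4 and 196.9 in hIMP1 Dmut, 141.9 and 202.3 in hIMP1 wt and 164.6 and 219.5 in mock. IFI6, a small protein of the endoplasmic reticulum and mitochondria, read 65.4 and 87.1 in hIMP1 Dmut, 38.4 and 72.7 in hIMP1 wt and 59.3 and 97.9 in mock. In both genes every array numbered 2 was brighter than the array numbered 1 of its group. IFI27 read 4.59 and 4.80 in hIMP1 Dmut, 15.4 and 2.22 in hIMP1 wt and 2.12 and 5.15 in mock. IFI44L read 1.05 and 8.92 in hIMP1 Dmut, 8.96 and 8.65 in hIMP1 wt and 1.41 and 18.5 in mock. These 2 genes, which rank among the most strongly interferon-induced in many cell types, had no array above the floor and are too dim for an order between groups. IFI44 and XAF1 were also above it on 0 arrays, IFI35 on 1, SAMD9L on 2 and SAMD9 on 5.

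The first comparison asked whether hIMP1 Dmut changed these genes relative to the empty vector. No member was called: 0 of 46 probe sets had an adjusted p under 0.05 (limma, Benjamini-Hochberg over 27307 probe sets), against 2 probe sets in all (0.00732%). An unadjusted p under 0.05 was found for 0 of 46, against 387 of all 27307. That share of all is too small for 0 of 46 to set the members apart. Of 31 genes, 13 were higher and 18 lower in hIMP1 Dmut, with a median log2 change of -0.018, against -0.0061 over 12269 genes. Here and below a log2 change is of the intensity plus an offset of 9.048, which makes changes of dim genes smaller. Single genes lay between -0.71 and 0.51. All RNA came from whole cultures, so fewer responding cells and less RNA per cell cannot be told apart.

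The 3 genes of smallest p among those higher in hIMP1 Dmut were PARP9, MX1 and IRF9. In each, both hIMP1 Dmut arrays were above both mock arrays, in IRF9 by a margin of 45.43 to 45.24 between the nearest arrays. PARP9 differed by 0.51 ± 0.24 (SE, limma's unadjusted p = 0.0554), while its other kept probe set differed by 0.07. MX1 differed by 0.43 ± 0.39 and IRF9 by 0.46 ± 0.48. Only these 3 of 31 genes (9.68%) were higher without overlap, against 11.2% of all genes. Lower in hIMP1 Dmut by the smallest p were PARP14, IFIT2 and IFITM2. PARP14 differed by -0.66 ± 0.34 (SE, limma's unadjusted p = 0.0820), while its other kept probe set differed by 0.31. IFIT2 differed by -0.71 ± 0.45, and its second probe set by 0.07. IFITM2 differed by -0.45 ± 0.30. PARP14, IFITM2, HERC5 and IFITM3 were lower without overlap, which is 12.9% of 31 genes, against 12% of all genes.

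The members known to respond most strongly to interferon gave differences of either sign, none of them called. IFIT1 differed by -0.08 ± 0.37, IFIT3 by -0.02 ± 0.35 and ISG15 by 0.09 ± 0.29 between hIMP1 Dmut and mock (SE). A second IFIT3 probe set, of nearly the same mean, differed by -0.70 ± 0.46. For IFIT1 and ISG15 the sign depended on the mock array used: without the first, IFIT1 differed by -0.56 and ISG15 by 0.39, and without the second by 0.39 and -0.21. Each such value sets both hIMP1 Dmut arrays against 1 mock array, so it also holds the difference between array numbers described below. Within numbers 1 and 2, IFIT1 differed by 0.09 and -0.26 and ISG15 by -0.09 and 0.26. By role, the signal transducers lay between -0.17 and 0.46, the RNA sensors and antiviral enzymes between -0.15 and 0.20, and the ISG15 group between -0.19 and 0.23. The membrane and entry factors lay between -0.45 and 0.04, and the TRIM and nuclear body proteins between -0.02 and 0.22. Over the brightest probe sets of the 31 genes the highest upper 95% bound was 1.52 on the log2 scale, or 2.88-fold, and the lowest lower bound -1.71. Larger changes on this scale fell outside the intervals of these probe sets. The array number was not in the fit of any construct comparison, so the intervals also hold the difference between numbers. No interval with the number in the fit is given. The scale includes the offset, so for dim genes a larger fold of the intensity itself can lie within an interval. The lower bound of the second IFIT3 probe set was -1.72.

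The second comparison set hIMP1 wt against the empty vector and used the same mock arrays. Of 46 member probe sets, 0 were called (limma, adjusted p), against 0.00732% of all probe sets. An unadjusted p under 0.05 was found for 0 of 46, against 281 of all 27307, again too small a share to set the members apart. Of 31 genes, 15 were higher and 16 lower in hIMP1 wt. The median log2 change was -0.0033 for the members and -0.015 for all genes, and single genes lay between -0.46 and 0.47.

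OASL, IFIH1 and IFIT5 had the smallest p among the genes higher in hIMP1 wt. OASL differed by 0.47 ± 0.35, and by -0.03 in its second probe set. IFIH1 differed by 0.33 ± 0.31 and IFIT5 by 0.21 ± 0.20. These 3 and PARP9 were the genes higher without overlap, 12.9% of 31 against 8.67% of all genes. OASL was so by a margin of 51.90 to 51.86 between the nearest arrays. The second kept probe sets of PARP9 and IFIT5 differed by -0.04 and 0.14, with overlapping arrays. Among genes lower in hIMP1 wt, PARP14 differed by -0.44 ± 0.34, IFI6 by -0.46 ± 0.37 and IRF1 by -0.29 ± 0.32. PARP14 and PARP12 were lower without overlap, 6.45% of 31 against 11% of all genes. IFI6 differed by -0.06 without the first hIMP1 wt array and by -0.85 without the second.

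IFIT1 differed by 0.11 ± 0.37, IFIT2 by -0.27 ± 0.45, IFIT3 by -0.17 ± 0.35, ISG15 by -0.12 ± 0.29 and MX1 by -0.02 ± 0.39 between hIMP1 wt and mock (SE), with MX1 at 0.02 after quantile and 0.03 after median scaling. IFIT1 and ISG15 again changed sign with the mock array left out, with -0.36 and 0.18 without the first and 0.59 and -0.42 without the second. Within numbers 1 and 2 they were 0.24 and -0.02 for IFIT1 and -0.49 and 0.25 for ISG15. Of the genes that passed the filter, those higher in hIMP1 wt were 6 of 6 RNA sensors and antiviral enzymes, 2 of 4 IFIT genes, 2 of 3 TRIM and nuclear body proteins, 1 of 3 signal transducers, 1 of 3 of the ISG15 group, 1 of 3 PARP proteins, 1 of 4 membrane and entry factors, 1 of 4 other induced proteins and 0 of 1 GTPases, against 46.5% of all genes. None was called, and the sensors and enzymes lay between 0.03 and 0.47. ADAR and EIF2AK2 differed by less than their standard errors, with 0.03 ± 0.18 and 0.05 ± 0.21. ADAR differed by -0.03 within number 1 and OAS3 by -0.13 within number 2. OAS1 and OAS2 have the same role but did not pass the filter. Their means were lower in hIMP1 wt than in mock, 2.70 against 8.42 and 12.28 against 24.05, all below the floor. The upper and lower 95% bounds over the brightest probe sets of the 31 genes reached 1.32, or 2.49-fold, and -1.28. The upper bound of the second SAMD9 probe set was 1.71.

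**Figure D2:**
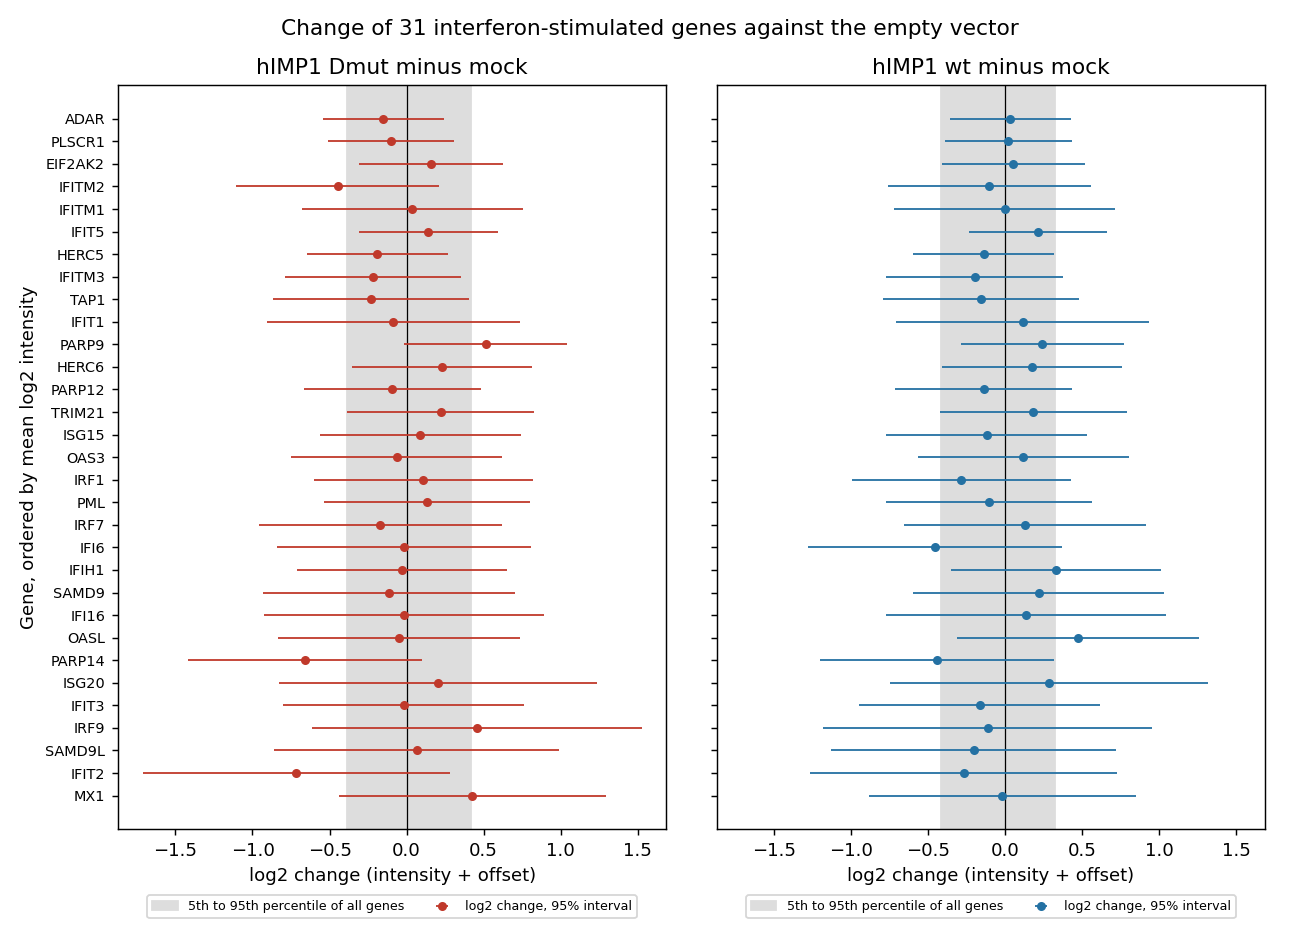
Log2 change with its 95% interval (limma) for the 31 members that passed the filter, hIMP1 Dmut minus mock on the left and hIMP1 wt minus mock on the right, with the grey band spanning the 5th to the 95th percentile of all genes. Every interval includes 0.

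The third comparison was between the Dmut and the wild-type form. No member probe set was called among 46 (limma, adjusted p), and none among all 27307 (0%); 1 of 46 had an unadjusted p under 0.05, against 337 of all. It was the second probe set of SAMD9, a gene linked to antiviral defence and growth control, which differed by -0.94 and whose brighter probe set differed by -0.33; it was singled out after its value was seen. Of 31 genes, 14 were higher and 17 lower in hIMP1 Dmut, with a median of -0.05 against 0.01 for all genes. Single genes lay between -0.53 and 0.57.

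IRF1, IFI6 and IRF9 had the smallest p among the genes higher in hIMP1 Dmut than in hIMP1 wt, with differences of 0.39 ± 0.32, 0.44 ± 0.37 and 0.57 ± 0.48 (SE). The IRF9 difference rested on the second hIMP1 wt array, and was -0.14 without it and 1.29 without the first. Among the genes lower in hIMP1 Dmut, OASL differed by -0.53 ± 0.35, IFIH1 by -0.36 ± 0.31 and IFITM2 by -0.34 ± 0.30. IFITM2 differed by 0.11 without the second hIMP1 wt array and by -0.80 without the first. PARP9, IRF1, MX1, ISG15 and SAMD9L were higher without overlap, 16.1% of 31 genes against 12% of all genes, and OASL and IFIH1 lower, 6.45% against 8.75%. ISG15 differed by 0.21 ± 0.29, with 93.3 in the lower hIMP1 Dmut array and 92.4 in the higher hIMP1 wt array. The 95% bounds over the brightest probe sets of the 31 genes reached 1.64, or 3.12-fold, and -1.44. The lower bound of the second SAMD9 probe set was -1.865.

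Since arrays of the same number resembled each other more than arrays of the same group, each comparison was also taken within a number. For hIMP1 Dmut minus mock the median over 31 members was -0.08 among arrays numbered 1 and 0.04 among arrays numbered 2. For hIMP1 wt minus mock it was -0.03 and 0.02, and for hIMP1 Dmut minus hIMP1 wt -0.01 and -0.04. With 1 array a group within a number these values have no test.

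The labels do not say what the number marks, but it went with larger differences than the constructs did. Over all genes the 5th and 95th percentiles of log2 change were -0.55 and 0.55 for the number. They were -0.39 and 0.42 for hIMP1 Dmut minus mock and -0.42 and 0.32 for hIMP1 wt minus mock. For hIMP1 Dmut minus hIMP1 wt they were -0.33 and 0.45. Counts of calls come from unlike fits and do not compare these sizes. Between arrays numbered 2 and arrays numbered 1, with the group in the fit, 1558 of 27307 probe sets were called (5.71%), 767 higher and 791 lower in number 2. Of the members, 3 of 46 probe sets were called (6.52%), all higher in number 2, and 11 of 46 had an unadjusted p under 0.05, against 22.3% of all. Both shares of the members lay near those of all probe sets. Of 31 genes, 17 were higher and 14 lower in number 2, with a median of 0.09 against 0.02 for all genes.

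The called members were IFITM1, IFIT1 and IFITM2. IFITM1 read 635.3, 595.2 and 617.8 on the arrays numbered 2 of hIMP1 Dmut, hIMP1 wt and mock, against 379.2, 382.4 and 370.0 on those numbered 1. The 2 sets of 3 arrays did not overlap, and IFITM1 differed by 0.69 ± 0.12, or 1.62-fold (SE, limma's adjusted p = 0.00988). IFIT1 read 174.1, 207.0 and 210.1 on the arrays numbered 2, against 111.7, 125.4 and 104.5 on those numbered 1. It also showed no overlap and differed by 0.74 ± 0.16, or 1.68-fold (limma's adjusted p = 0.0256). IFITM2 read 599.2, 931.4 and 854.2 on the arrays numbered 2, against 469.7, 489.5 and 618.9 on those numbered 1. Its sets overlapped by 1 array, and it differed by 0.57 ± 0.13, or 1.49-fold (limma's adjusted p = 0.0304).

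These calls depended on the fit and on single arrays. Without the intensity trend in limma's prior, 0 probe sets of any gene were called between the numbers, with adjusted p = 0.167 for IFITM1, 0.168 for IFIT1 and 0.197 for IFITM2. Without the filter on low intensity, IFITM1 was still called, while limma's adjusted p was 0.0553 for IFIT1 and 0.0627 for IFITM2. The IFITM1 call was lost without the second hIMP1 wt array (limma's adjusted p = 0.0525). IFIT1 and IFITM2 lost theirs without either hIMP1 wt array or either mock array, with limma's adjusted p between 0.0999 and 0.159 for IFIT1 and between 0.0538 and 0.310 for IFITM2. All 3 were called without either hIMP1 Dmut array.

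Other members ran the opposite way with the number. ISG20 differed by -0.81 ± 0.28 (limma's adjusted p = 0.114), IRF9 by -0.78 ± 0.31 (limma's adjusted p = 0.156) and IFIT2 by -0.69 ± 0.31 (limma's adjusted p = 0.214). These probe sets read lower on the array numbered 2 in each of the 3 groups and were not called. The second IFIT3 probe set did likewise, by -0.82 ± 0.28 (limma's adjusted p = 0.111), while the second IFIT2 probe set differed by -0.27 ± 0.35 and was 0.39 higher on number 2 within mock. Of 31 genes, 11 were higher on the array numbered 2 in all 3 groups (35.5%), against 24.7% of all genes, and 7 were lower in all 3 (22.6%), against 19.7%. The median over members was 0.03 within hIMP1 Dmut, 0.21 within hIMP1 wt and -0.04 within mock. ISG15 differed by -0.24 ± 0.21, the brighter IFIT3 probe set by -0.31 ± 0.27 and MX1 by 0.13 ± 0.34, none of them called.

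**Figure D3:**
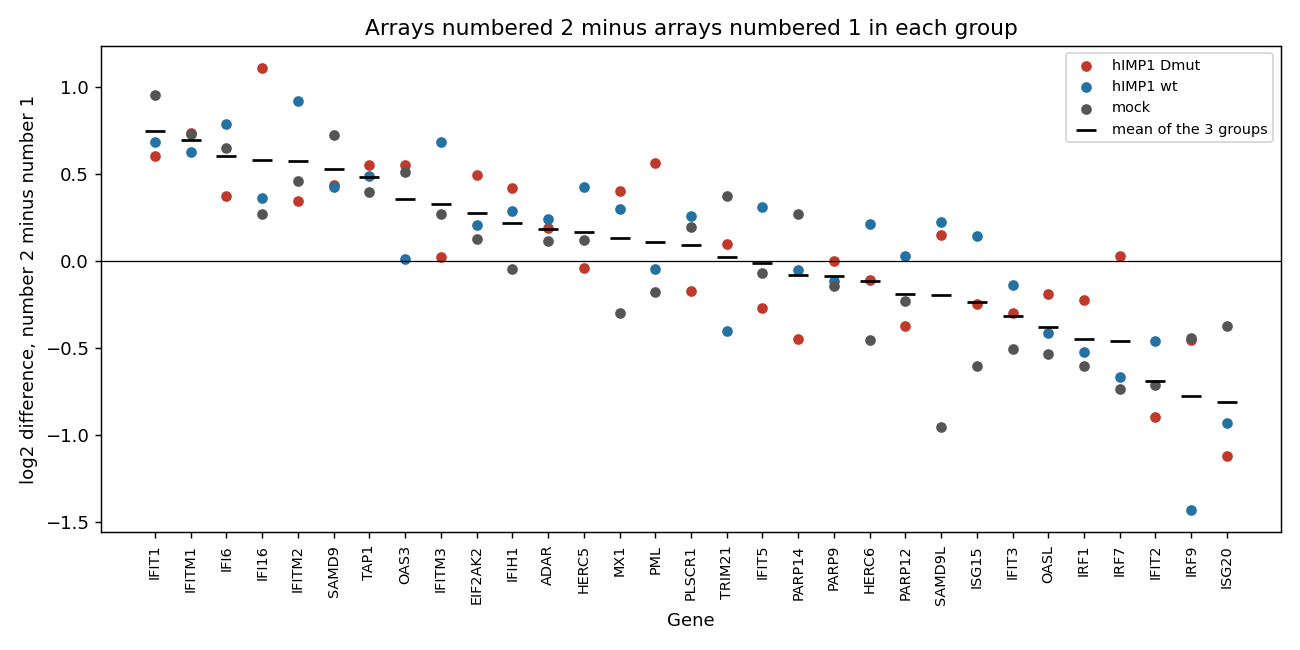
Log2 difference between the array numbered 2 and the array numbered 1 in each group (coloured points) and its mean over the 3 groups (bars) for 31 members. IFIT1 and IFITM1 lie above 0 in all 3 groups, with means of 0.74 and 0.69, and ISG20 and IRF9 lie below 0 in all 3, with means of -0.81 and -0.78.

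The rest of the pathway was read from other gene lists. Of 18 interferon ligand genes with a probe set, 0 were above the floor on all 6 arrays and 16 on none. The ligand genes of highest mean were IFNA17, between 22.8 and 55.2, and IFNL1, between 14.2 and 48.1. IFNB1, the interferon most cells make first, lay between 1.57 and 3.32 and is named outside the rule for genes, after its value was seen. In contrast, 10 of 10 genes with a probe set on the receptor and kinase list were above the floor on all 6 arrays. That list also holds STAT3, a transcription factor. IFNGR1 lay between 738.5 and 1068 and IFNGR2 between 546.4 and 844.6.

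Of 23 genes of nucleic acid sensing with a probe set, 12 were above the floor on all 6 arrays. PRKDC, the catalytic subunit of the DNA-dependent protein kinase, lay between 1419 and 2008, and SAMHD1, which breaks down deoxynucleotides, between 606.6 and 854.8. Of 11 negative regulators 8 were above it on all 6 arrays, among them the phosphatase PTPN11 between 2816 and 2892 and TRIM24 between 543.8 and 605.5. Of 49 other interferon-induced genes 25 were above it on all 6 arrays and 17 on none, with B2M, the light chain of MHC class I, between 5371 and 6528 and LGALS3BP between 1655 and 1955.

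**Figure D4:**
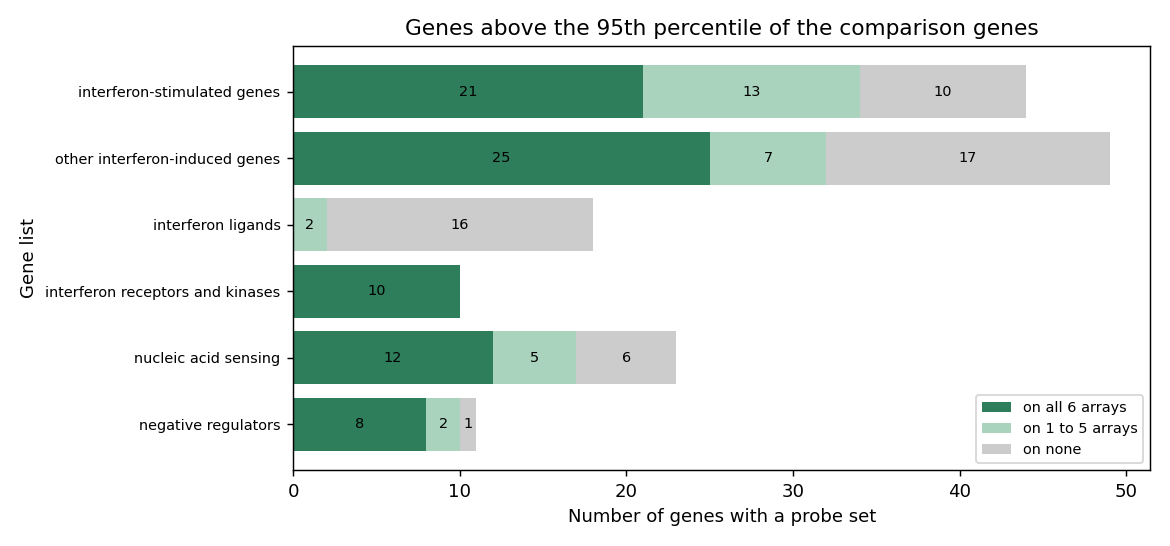
Number of genes in 6 lists whose brightest probe set was above the 95th percentile of the comparison genes on all 6 arrays, on 1 to 5 or on none. Of 44 interferon-stimulated genes 21 are above it on all 6, and of 18 ligand genes 0. Of the 10 genes on the receptor and kinase list, which includes STAT3, 10 are.

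None of the genes in these lists was called between the constructs and mock or between the constructs (limma, adjusted p). With the number of the array, 2 of the 68 genes of these 5 lists that passed the filter were called higher and 2 lower (5.88%), near the 5.71% of all probe sets, and 0 were called without the intensity trend. TRIM25, the ligase that activates RIGI, differed by 0.58 (limma's adjusted p = 0.0350), and LY6E, a membrane protein that restricts coronaviruses, by 0.63 (limma's adjusted p = 0.0467). TRAF6, a signalling ligase downstream of Toll-like receptors, differed by -0.82 (limma's adjusted p = 0.0169), and DTX3L, the partner of PARP9, by -0.64 (limma's adjusted p = 0.0327). Each of the 4 had the same sign in all 3 groups. Median log2 changes of the 30 other interferon-induced genes that passed the filter were 5.6e-04 for hIMP1 Dmut and -0.0022 for hIMP1 wt against mock, and 0.06 between the numbers.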

How the data were processed

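Total RNA of transfected human kidney cells was measured on 6 arrays, 2 for each of 3 transfections; groups came from the labels' descriptions (1 array is written hIMP Dmut in part of its label) and numbers from the titles. No label ties the arrays of a group to separate cultures. The p-values therefore cover the spread of these 6 arrays alone, and that spread may be technical. The deposited values are linear intensities, 1 per probe set, in the authors' series table; their software is not given in the sources used here, nor is their scaling. The number of arrays limits precision.

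The 62 control probe sets were left out. Intensities were used as deposited, as log2(intensity + 9.048), the offset being the pooled 25th percentile. Probe sets with a mean log2 value of at least 5.186, the median of those means, were kept (27307). The platform annotation gave 1 symbol for 41091 probe sets, several for 1801 and none for 11721; 41037 of the first were matched to RefSeq (GRCh38.p14) and 0 symbols changed. A gene is its brightest probe set with 1 symbol (12269 genes kept).

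All 6 arrays entered 1 fit with limma 3.58.1 in R 4.3.3 (lmFit, eBayes with an intensity trend), with 3 residual degrees of freedom and a prior of 7.03. This fit left out the array number, so its standard errors and intervals include the difference between numbers. The numbers were compared in a fit with a coefficient per group (2 degrees, prior 10.5). All tests were two-sided; p-values were adjusted by Benjamini-Hochberg over every kept probe set, with a threshold of 0.05. Intervals are at 95%. A 2 against 2 exact permutation test cannot go below p = 0.333, so none is given. The fit was also run on simulated arrays with noise independent between arrays. The arrays here resembled each other by number, so that run does not check the fit for such data, and no result rests on it. Promoter windows came from a RefSeq table and are missing there for 9 members.

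The members, the other gene lists and the rules were chosen with earlier results of these data known. Values of every array are given for members above the floor on all 6 arrays, called members, the 3 of smallest p in each direction of each comparison, and IFIT1, IFIT2, IFIT3, ISG15, MX1, OAS1, IFI27 and IFI44L. Of the pathway and kidney epithelium lists, counts are given with the 2 genes of highest mean and the called genes. IFNB1, PAX8, PAX2, LHX1, CDH1, CDH2, JAK2 and IFNAR2 were named outside that rule, after their values were seen. Alternatives were quantile and median scaling, other offsets and filters, no intensity trend, a block for the replicate number, a fit to just the 4 arrays compared, the mean of a gene's probe sets, and each array left out in turn.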

Additional observations from a re-analysis of the deposited data

How the results depend on the processing

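Each result was recomputed under each alternative. Of 551 such values of single genes, 25 had the opposite sign, 23 of them with an array left out and 2 with another scaling. Those 25 fell in 14 of the 40 pairs of a gene and a comparison. Some alternatives, such as no intensity trend or a block, cannot alter a log2 change. The share of 551 therefore does not measure stability. Of the 25, 0 were of a gene called in that comparison. Another 14 of the 551 fell short of a call made in the comparison given. Leaving out an array can also change which probe set stands for a gene. The cause was not tested. Member calls against mock and between the constructs were 0 under every alternative run. Among all probe sets, hIMP1 Dmut minus mock gave 1 call with the filter at the 75th percentile and 0 without the intensity trend, and hIMP1 wt minus mock gave 1 with the offset at the 10th percentile, 1 with the filter at the 75th percentile, 0 without the trend and 0 from only the 4 arrays compared. Member medians moved to -0.13 (hIMP1 Dmut minus mock, 75th percentile filter), to 0.054 (hIMP1 wt minus mock, median scaling) and, for hIMP1 Dmut minus hIMP1 wt, to -0.18 with median scaling, -0.071 without the filter, -0.071 with the 75th percentile filter and -0.071 with the mean of all probe sets. Median scaling also moved the median of all genes, to -0.11 for hIMP1 Dmut minus hIMP1 wt and 0.12 for number 2 minus 1, where the members then had 0.20. Between the numbers, 558 probe sets and 1 of the members were called without the filter (limma's adjusted p of IFIT1 0.0553 and of IFITM2 0.0627), and 0 probe sets and 0 members without the trend (IFITM1 0.167, IFIT1 0.168, IFITM2 0.197). The member median was 0.30 with the 75th percentile filter. With 1 array left out, calls among all probe sets ranged from 0 to 2 for hIMP1 Dmut minus mock, 0 to 3 for hIMP1 wt minus mock and 262 to 5402 between the numbers, where the members had 0 to 5; the 5402 came without the first hIMP1 Dmut array and the 262 without the second hIMP1 wt array. Member medians then ranged from -0.17 to 0.027, -0.083 to 0.13, -0.19 to 0.083 (hIMP1 Dmut minus hIMP1 wt) and -7.9e-05 to 0.19 (number 2 minus 1). A lone array was assumed to vary like the other groups. The labels give groups the same numbers without saying what they mark; the differences between numbers 2 and 1 correlated at 0.217, 0.200 and 0.464 between groups across probe sets. With the replicate number as a block, hIMP1 Dmut minus mock and hIMP1 wt minus mock each gave 2 calls among all probe sets. Among members there were 0 calls, as without the block. Whether the probe sets called were the same was not checked. The medians, -0.018 and -0.0033, could not move, since each number holds 1 array of every group. Dim probe sets limit what can be seen: the 13 members below the filter were not tested.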

Other observations

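Probe sets annotated to a member and another gene were left out of the comparisons. One that is annotated to both IFITM2 and IFITM1 read 112.9 and 250.8 in hIMP1 Dmut, 167.2 and 329.1 in hIMP1 wt and 159.3 and 350.4 in mock. It was brighter on the array numbered 2 in each group, by 1.04 ± 0.14 on the log2 scale (SE, limma's adjusted p = 0.00366), and differed by -0.47 ± 0.45 between hIMP1 Dmut and mock. One annotated to RNF31 and IRF9 lay between 38.3 and 69.5 and differed by -0.16 ± 0.28 between the numbers, against -0.78 ± 0.31 in the probe set of IRF9 alone.

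Among the receptors and kinases, JAK2 and IFNAR2 were singled out after their values were seen. JAK2, a kinase of the interferon gamma receptor, read 81.2 and 61.6 in hIMP1 Dmut, 56.5 and 58.0 in hIMP1 wt and 42.3 and 35.1 in mock. All 4 arrays of the constructs were above both mock arrays, and the difference was 0.75 ± 0.32 for hIMP1 Dmut (limma's unadjusted p = 0.0393, adjusted p = 1.00) and 0.48 ± 0.32 for hIMP1 wt. IFNAR2, a chain of the type I interferon receptor, read 442.5 and 372.9 in hIMP1 Dmut, 261.6 and 382.6 in hIMP1 wt and 441.7 and 439.1 in mock. It differed by -0.11 ± 0.23 between hIMP1 Dmut and mock and by -0.47 ± 0.23 between hIMP1 wt and mock (limma's unadjusted p = 0.0662, adjusted p = 1.00).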
